A study of Mus musculus with 2 samples.

Results

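NF-kappaB is the transcription factor that carries many danger signals from the cell surface and the endosome to the nucleus, and 10 mouse genes of its core are described here: the subunit genes Nfkb1, Nfkb2, Rel, Rela and Relb, the inhibitor genes Nfkbia and Nfkbie, the kinase genes Ikbkb and Chuk, and the feedback gene Tnfaip3. They were taken by name as the probe sets whose only platform gene symbol is one of these 10. Of them, 8 had such a probe set, 1 each, among 19938 named genes in all, so that no choice between probe sets arose. Nfkb1 and Chuk had none in the annotation used and were not analysed here.

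Transcripts were read on Affymetrix Mouse Gene 1.0 ST arrays, whose probes lie along the length of each transcript, in plasmacytoid dendritic cells (pDCs), the blood cells specialised in type I interferon. The cells were sorted from the bone marrow of mice 2 months after reconstitution with fetal liver cells. One array held pDCs of chimeras made with Runx2-/- fetal liver, which lacks the transcription factor Runx2, and the other held pDCs of chimeras made with wild type fetal liver. Both samples carried the same sort, CD11b-negative and positive for BST2 and B220, and the same RNA input of 250 ng. That gate has no marker to separate donor cells from remaining host cells, and the labels give neither the age nor the number of mice behind a sample. With 1 array per group there was no test, standard error or p-value for any difference below.

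The arrays themselves were close in scale, with column medians of 181.7 intensity units for Runx2-/- and 182.9 for wild type, and pDC markers were bright on both. Of 10 measured pDC markers, 10 passed the brightness filter (at or above the median of named genes on at least 1 array) and their median log2 difference was -0.046, Runx2-/- minus wild type as throughout. The list ran from -0.69 for Spib to 0.13 for Ptprc, and Bst2, whose protein was sorted on, was at -0.31, so several pDC markers differed as much as the members below. Markers of some other cells differed more, with 0.647% of all named genes at least 2-fold lower and 0.436% at least 2-fold higher as the background. Of 12 neutrophil genes, 10 were at least 2-fold lower in Runx2-/- pDCs, with summed levels of 2658 intensity units in Runx2-/- and 18242 in wild type. The same held for 4 of 7 measured erythroid genes, with sums of 768 in Runx2-/- and 2241 in wild type, and for 2 of 5 platelet genes, with sums of 1133 in Runx2-/- and 6453 in wild type. Ppbp carries most of the platelet sum, which is 977 in Runx2-/- and 1615 in wild type without it. The 3 measured Y-linked genes were also at least 2-fold lower, with sums of 158 in Runx2-/- and 1428 in wild type. Single markers of further cell types differed in both directions. The B cell list gene Cd22 was 2.94-fold and the NK cell list gene Klrk1 2.11-fold higher in Runx2-/-. From the conventional dendritic cell list Itgax was 5.39-fold lower, and from the monocyte and macrophage list Lyz2 was at -1.59. Each of these lists held genes on both sides of 0. Their medians were 0.062 (B cell), 0.12 (NK cell), 0.0063 (conventional dendritic cell) and -0.064 (monocyte and macrophage). Of 6 T cell genes 0 were 2-fold apart. Genotype, the share of other cells and the sex of the donors therefore cannot be told apart here. Runx2 was not analysed here, since 0 probe sets carry its symbol in the annotation used.

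As background, the 5 subunits share a Rel homology region and work as pairs. RelA, c-Rel and RelB activate transcription, while the products of Nfkb1 and Nfkb2 are made as long precursors that are cut to the DNA-binding forms. In a resting cell the inhibitors IkappaB alpha (Nfkbia) and IkappaB epsilon (Nfkbie) hold the pairs in the cytoplasm until the IkappaB kinases (Ikbkb and Chuk) mark them for destruction. Nfkbia, Nfkbie, Nfkb2, Relb, Rel and Tnfaip3 are themselves textbook targets of NF-kappaB, so their transcripts are part of a feedback loop. In pDCs the pathway runs from TLR7 and TLR9 through MyD88 and acts beside the interferon regulatory factors. Its activity is set mainly by protein turnover and movement to the nucleus, which transcript levels do not show.

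The promoter sequences of the 4 measured members furthest from no difference are shown first, since Rela and Nfkbie were lower and Nfkb2 and Nfkbia higher in Runx2-/- pDCs. Each run is the 250 bases before a RefSeq transcription start on GRCm38.p6, written 5′ to 3′ on the gene's strand. Capitals mark matches, on either strand, to the 10-base kappaB consensus (GGG, a purine, any base, A or T, a pair of pyrimidines, CC), with overlapping matches joined.
Rela (chr19:5637291-5637540, plus strand): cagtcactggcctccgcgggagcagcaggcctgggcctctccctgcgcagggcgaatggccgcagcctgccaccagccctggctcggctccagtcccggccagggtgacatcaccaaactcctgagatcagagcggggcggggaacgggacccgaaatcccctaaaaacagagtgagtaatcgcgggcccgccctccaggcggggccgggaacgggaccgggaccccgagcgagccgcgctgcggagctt
Nfkb2 (chr19:46304487-46304736, plus strand): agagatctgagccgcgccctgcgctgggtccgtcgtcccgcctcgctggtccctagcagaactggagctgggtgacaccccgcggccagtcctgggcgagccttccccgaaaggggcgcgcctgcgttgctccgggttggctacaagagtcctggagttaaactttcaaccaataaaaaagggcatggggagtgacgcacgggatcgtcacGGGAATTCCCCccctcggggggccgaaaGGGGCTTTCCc
Nfkbia (chr12:55492648-55492897, minus strand): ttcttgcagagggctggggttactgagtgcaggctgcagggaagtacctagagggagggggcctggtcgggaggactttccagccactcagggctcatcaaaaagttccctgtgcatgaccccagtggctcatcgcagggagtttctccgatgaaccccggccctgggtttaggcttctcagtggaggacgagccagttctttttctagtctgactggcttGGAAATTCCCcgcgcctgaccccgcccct
Nfkbie (chr17:45555450-45555699, plus strand): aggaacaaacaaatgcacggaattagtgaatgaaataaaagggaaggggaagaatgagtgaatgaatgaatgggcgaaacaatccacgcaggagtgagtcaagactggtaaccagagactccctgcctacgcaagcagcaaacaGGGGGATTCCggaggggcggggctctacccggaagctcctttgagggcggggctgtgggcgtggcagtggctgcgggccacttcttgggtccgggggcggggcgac

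The capitals show 1 match each for Nfkbia and Nfkbie, 2 for this start of Nfkb2 and 0 for Rela. The Nfkbia match ends 20 bases before the start, and the Nfkbie match ends 97 bases before it. Nfkb2 has 3 starts in the table, the other two with 1 match each. RefSeq promoters were found for 6 of the 8 measured members, and 5 of these 6, all but Rela, held the consensus in at least 1 window, against 4.46% of the 27025 genes in the table. Members on both sides of 0 therefore carry it: Nfkb2, Nfkbia and Tnfaip3 among the higher ones, Nfkbie and Rel among the lower ones. The Runx motif TGTGGT, searched on both strands, occurred in 1 of the 6, Rel, against 15.9% of all genes; counted by window, the shares are 3.90% for kappaB and 14.0% for Runx. These are matches of letters and not measured binding sites.

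No member was 2-fold apart between the arrays. Of the 8 measured members, 0 reached a 2-fold difference, against 1.08% of all named genes and 1.96% of those past the brightness filter, and 0 reached 1.5-fold, against 3.95% and 6.88%. Shares this low over the whole array give fewer than 1 gene in a list of 8, so a count of 0 is near the background. The differences ran from -0.50 to 0.32 on the log2 scale, with a median of -0.077 beside -0.033 over all named genes. Of the 8, 3 were above 0 (37.5%, beside 42.6% of all named genes) and 5 below. Past the filter, 3 of 7 members were above 0 (42.9%, beside 47.8% of named genes past the filter). For 10337 named genes past the filter, the central 95% ran from -0.72 to 0.63, and all 8 members lay inside it. The median absolute difference of the 8 members was 0.25, beside 0.14 for all named genes. For the 7 members past the filter it was 0.31, beside 0.18 for all genes past the filter. In RNA of a whole sorted sample, fewer cells with a transcript and less of it per cell cannot be told apart.

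**Figure D1:**
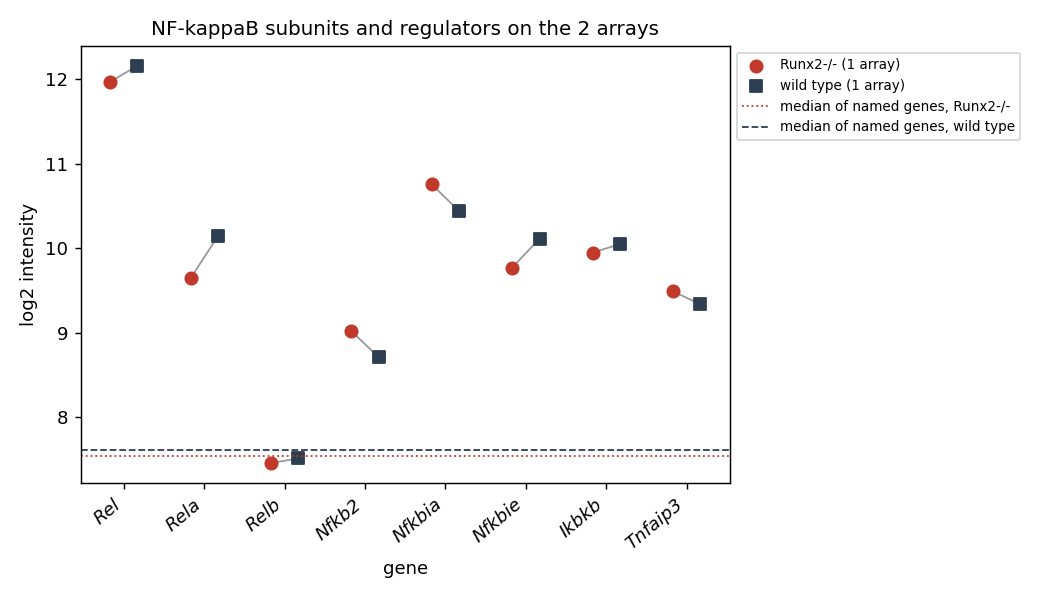
Level of each measured member on the Runx2-/- array (circle) and the wild type array (square), in log2 intensity, with 1 array per group and no error bars. The dotted and dashed lines are the medians of named genes on each array; Relb alone lies below both, Rela shows the largest gap, and heights of different genes are not comparable because each probe set has its own response.

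The activating subunits were lower or nearly equal in Runx2-/- pDCs. Rela, which encodes RelA (p65), the subunit of the classical pair, was at 801 intensity units in Runx2-/- pDCs and 1131 in wild type pDCs. That is 1.41-fold lower, a log2 difference of -0.50 and the largest of the 8 in size. Of the genes past the brightness filter, 10.1% differed by at least as much in either direction. Rel, which encodes c-Rel, a subunit used heavily by lymphocytes and dendritic cells, was bright on both arrays, at 4018 intensity units in Runx2-/- and 4581 in wild type. Its log2 difference of -0.19 was matched or exceeded in size, in either direction, by 47.4% of genes past the filter. A difference of that size is therefore common on these arrays. Relb, the partner of p52 in the alternative branch, was at 176 intensity units in Runx2-/- and 183 in wild type, a log2 difference of -0.054. Both Relb levels were below the median of named genes, a range in which RMA compresses differences.

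Nfkb2 went the other way from the 3 Rel genes. It encodes p100, the precursor of p52 that also acts as an inhibitor, and was at 519 intensity units in Runx2-/- and 419 in wild type. The level was 1.24-fold higher in Runx2-/- pDCs, a log2 difference of 0.31, and 26.1% of genes past the filter differed as much or more. The array reads the transcript alone, so how much p100 is cut to p52 is not measured.

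The inhibitor genes split. Nfkbia, which encodes IkappaB alpha, the fast inhibitor that is destroyed and resynthesised within a response, was at 1731 intensity units in Runx2-/- pDCs and 1390 in wild type pDCs. It was 1.25-fold higher in Runx2-/-, a log2 difference of 0.32. Nfkbie, which encodes IkappaB epsilon, a slower inhibitor that binds RelA and c-Rel pairs, was at 874 intensity units in Runx2-/- and 1109 in wild type. It was 1.27-fold lower, with a log2 difference of -0.34. Of genes past the filter, 25.1% differed at least as much as Nfkbia and 21.8% at least as much as Nfkbie, so each difference alone is common on these arrays.

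The kinase and feedback genes were the closest to equality after Relb. Ikbkb, the catalytic kinase of the classical branch, was at 989 intensity units in Runx2-/- and 1060 in wild type, a log2 difference of -0.10. Tnfaip3 encodes A20, the ubiquitin-editing enzyme that ends NF-kappaB signalling. Its level was 720 intensity units in Runx2-/- and 647 in wild type, a log2 difference of 0.16. Differences of at least these sizes were seen for 70.4% (Ikbkb) and 55.5% (Tnfaip3) of the genes past the filter.

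**Figure D2:**
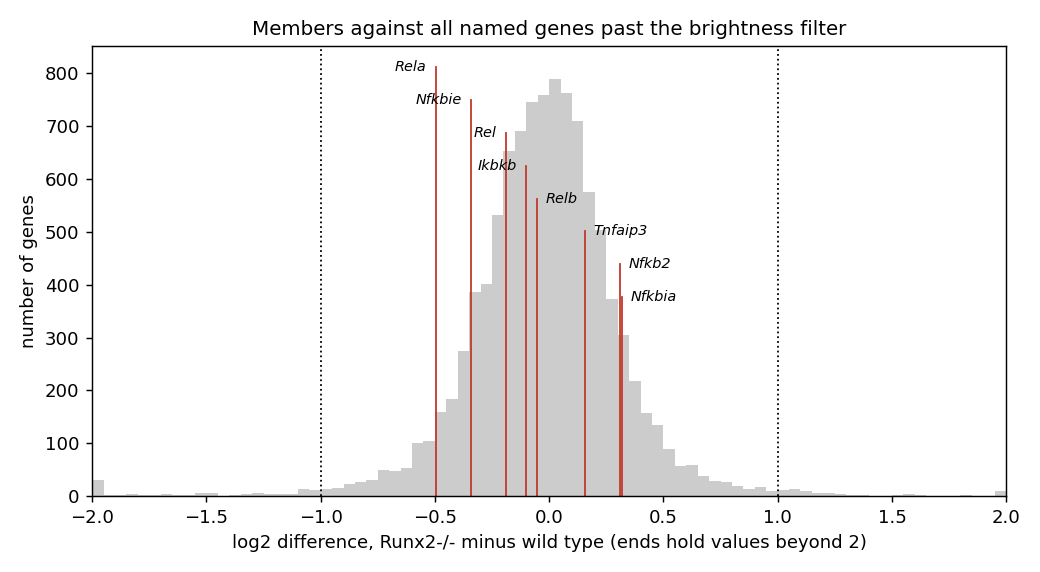
Histogram of the log2 difference, Runx2-/- minus wild type, over the 10337 named genes past the brightness filter, with the 8 measured members as red lines (Relb, below the filter, included; line heights only separate the names). Dotted lines mark 2-fold; the members run from -0.50 (Rela) to 0.32 (Nfkbia), all within the central 95% of genes.

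The signs of all 8 members were unchanged under median centring, loess correction, quantile normalisation, averaging of probe sets and an added pseudocount. Averaging could not change a sign, since each member has 1 probe set, and nor could a pseudocount added to both arrays. Median centring moved all differences by 0.0097, less than the smallest of the 8 (-0.054, Relb). Only the loess correction and quantile normalisation could have changed a sign. Rela ranged from -0.56 to -0.49 over these settings and Nfkbie from -0.40 to -0.33. Nfkbia ranged from 0.27 to 0.33 and Nfkb2 from 0.25 to 0.32. These settings rework the same 2 arrays and give no measure of the spread between mice or hybridisations.

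Genes of the wider IkappaB family, not all of them inhibitors, also lay on both sides of 0. Of 6 measured genes of the wider IkappaB family and its partners, 0 were 2-fold apart, 2 were above 0 and 4 below, with a median of -0.088 beside -0.033 for all named genes. Nfkbib, which encodes IkappaB beta, another cytoplasmic inhibitor, was at 1581 intensity units in Runx2-/- and 2298 in wild type, 1.45-fold lower (-0.54). Differences that large were seen for 8.41% of genes past the filter. Nfkbiz, a nuclear member of the family that switches on a late set of genes, was at 0.30, close to Nfkbia. The nuclear members Bcl3 and Nfkbid were at -0.17 and -0.14.

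Of 13 measured genes of the IkappaB kinase complex, the kinases above it and related proteins, 0 were 2-fold apart. Their differences ran from -0.37 for Tab1, an adaptor of the kinase TAK1, to 0.23 for Tbk1, a kinase that also activates interferon regulatory factors. Among 12 measured adaptors of the TRAF and IRAK groups and related ones, 9 were below 0 (75%, beside 56.7% of all named genes). Of these 12, 0 were 2-fold apart (beside 1.08%). Past the brightness filter, 8 of 11 were below 0 (72.7%, beside 51.9% of named genes past the filter). The RIP genes Ripk1 and Ripk2 were not measured. Traf3ip2, the adaptor of the interleukin-17 receptor, was at 313 intensity units in Runx2-/- and 573 in wild type, 1.83-fold lower (-0.87). Irak2, which prolongs signalling from Toll-like receptors, was at -0.52 and Tradd, an adaptor of the TNF receptor, at -0.45, while Traf1 and Traf6 were at 0.33 and 0.23.

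All 20 ubiquitin enzymes of the pathway passed the brightness filter, and 0 were 2-fold apart. Of the 20, 12 were above 0 (60.0%, beside 47.8% of named genes past the filter and 42.6% of all named genes). Their median was 0.046. Birc2 (cIAP1), a ubiquitin ligase that restrains the alternative branch, was at 781 intensity units in Runx2-/- and 527 in wild type, 1.48-fold higher. Its second probe set differed by 0.053 and the first by 0.57, so the gene's probe sets disagree. The brakes Cyld and Itch were at 0.37 and 0.35. Ube2v1 was the lowest of the list, at 1129 intensity units in Runx2-/- and 1534 in wild type (-0.44). Usp21 and Rbck1, a deubiquitinase and a part of the linear ubiquitin ligase, were at -0.39 and -0.34. Of 15 nuclear partners 0 were 2-fold apart, with the acetyltransferase gene Kat2b at 0.47 and the deacetylase gene Hdac1 at -0.31.

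Receptors that feed the pathway held the 1 pathway gene that was 2-fold apart. Of 17 measured receptor genes, 1 was at least 2-fold higher in Runx2-/- (background 0.436% of named genes) and 0 were lower (background 0.647%). Cd27, a TNF receptor family member of lymphocytes, was at 1411 intensity units in Runx2-/- pDCs and 444 in wild type pDCs, 3.18-fold higher. Tnfrsf13c, the receptor for the B cell survival factor BAFF, was at 2617 intensity units in Runx2-/- and 1723 in wild type, 1.52-fold higher. On the same arrays 1 of 6 B cell markers (Cd22) and 1 of 5 NK cell markers (Klrk1) were at least 2-fold higher and 0 lower. B cell sums were 3802 in Runx2-/- and 3050 in wild type, most of them from Cd79b (2397 and 2000) and Cd22 (755 and 257). Of the 6 B cell markers 3 were above 0 and 3 below. NK cell sums were 508 in Runx2-/- and 348 in wild type, of which Klrk1 held 244 and 116. The part of B cells and NK cells in these receptor differences was not tested. Cd40 was at 0.49. The sensors Tlr7 and Tlr9 differed by 0.24 and -0.32, and the TNF receptor gene Tnfrsf1a by -0.33. Over all 7 pathway lists, 1 of 89 measured genes, or 1.12%, was 2-fold apart, beside 1.08% of all named genes. Past the brightness filter it was 1 of 79, or 1.27%, beside 1.96% of named genes past the filter. The median of the 89 genes, -0.00048, lay near 0.

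**Figure D3:**
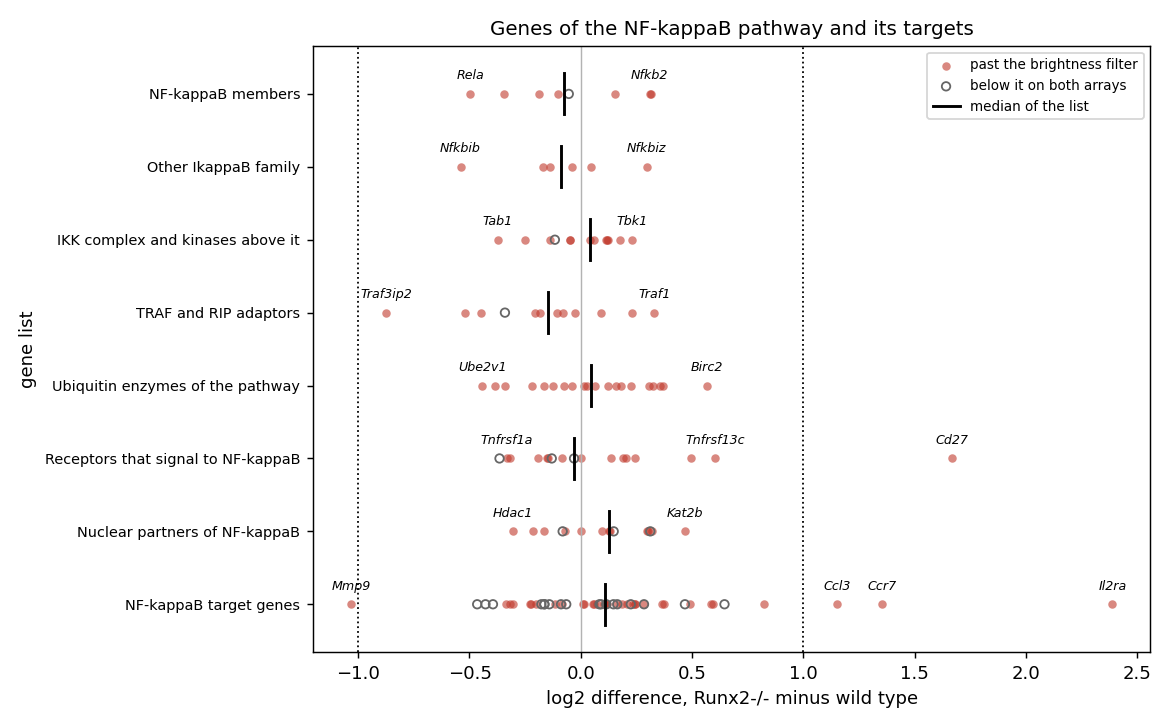
Log2 difference, Runx2-/- minus wild type, of each measured gene in the members' list, 6 of the 7 pathway lists and the target list; filled points passed the brightness filter, open points did not, and black bars are list medians. Most points lie between -0.5 and 0.5, and the genes beyond the dotted 2-fold lines are Cd27, Il2ra, Ccr7, Ccl3 and Mmp9.

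Of the textbook NF-kappaB target genes, members left out, 4 were 2-fold apart. Among the 52 measured, 3 were at least 2-fold higher in Runx2-/- and 1 at least 2-fold lower, beside 0.436% and 0.647% of all named genes, and 34 were above 0 (65.4%, beside 42.6%). The median of the 52 was 0.11. Past the brightness filter, 4 of 34 were 2-fold apart (11.8%, beside 1.96% of named genes past the filter). Of these 34, 25 were above 0 (73.5%, beside 47.8%). The list was chosen with earlier results of these data known, so these shares are a description and support nothing. The higher genes were Il2ra (5.23-fold), which encodes CD25, Ccr7 (2.56-fold), a lymph node homing receptor, and Ccl3 (2.22-fold), a chemokine. Mmp9, a gelatinase stored in neutrophil granules, was at 144 intensity units in Runx2-/- and 295 in wild type, 2.05-fold lower. Its log2 difference of -1.03 fell short of 2-fold after the loess correction (-0.99) and with 16 intensity units added (-0.96). It differed in the same direction as the neutrophil markers, 10 of 12 of which were at least 2-fold lower; the part of neutrophil RNA in it was not tested. The genes below 0 next in size past the filter were Bcl2l1 and Relt, at -0.34 and -0.32.

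**Figure D4:**
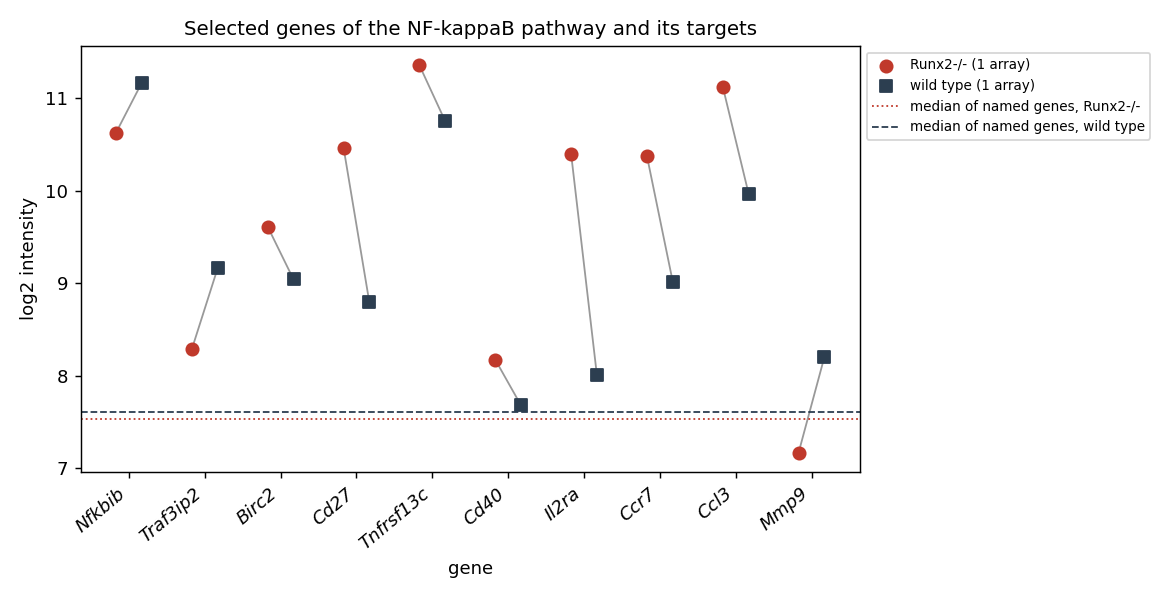
Log2 intensity of 10 genes of the pathway and target lists on the Runx2-/- array (circle) and the wild type array (square), 1 array per group, no error bars; lines are the medians of named genes. Cd27, Il2ra, Ccr7 and Ccl3 are higher and Mmp9 lower in Runx2-/- by at least 2-fold, while Nfkbib, Traf3ip2, Birc2, Tnfrsf13c and Cd40 differ by less. The Birc2 probe set shown is the brighter of 2 that disagree.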

How the data were processed

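The deposited values are intensities on a linear scale, 1 per probe set and array (35556 probe sets), which the authors made by RMA per the submitters' processing notes; RMA corrects background, equalises arrays and summarises probes, and compresses differences of dim probe sets. For its software and version, and for which arrays were normalised together: not given in the sources used here. The number of arrays limits the precision, and no detection call was given.

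Intensities were taken to log2 and wild type was subtracted from Runx2-/-. Probe sets with exactly 1 symbol (21789) were used, and the brightest of a gene's probe sets was kept. A call meant 2-fold, with no test. Genes named are the members, every listed gene 2-fold apart and up to 3 per direction and list past the brightness filter; Tlr7, single cell type markers and genes of the closing section were added after their values were seen. The members and lists were chosen with earlier results of these data known, so their counts and shares beside the background are descriptions. The samples were grouped by the genotype label. The calling code was run on simulated data with planted differences above 2-fold. That run checked the code only and gives no error rate for these arrays. Protein sequences planned for comparison were not used here, and 1 of the 7 pathway lists enters the joint count but is not reported here by itself. Alternatives covered scaling, probe set choice, threshold, pseudocount and brightness. Tools were pandas 2.3.3 and numpy 2.4.6 in Python 3.11.15, with statsmodels 0.14.6 for loess and figures by matplotlib 3.10.9.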

Additional observations from a re-analysis of the deposited data

How the results depend on the processing

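Median centring, a loess correction (span 0.3), quantile normalisation, averaging of probe sets, a pseudocount of 16 intensity units and the brightness filter changed no count of 2-fold genes by over 1.5 times; the target count was 3 with the loess correction and with the pseudocount, without Mmp9, against 4. At 1.5-fold, 0 members, 3 pathway genes, 7 target genes and 787 named genes were called, against 0, 1, 4 and 216 at 2-fold, by the construction of a lower threshold. The members' median ranged from -0.10 to -0.067. Of 8 members, 0 changed sign, though averaging and the pseudocount could not have changed one. Of 45 other genes the naming rule allows, 2 changed sign, both near 0, Ikbip among them. Averaging probe sets gave 0.31 for Birc2 and -0.25 for Ube2v1, against 0.57 and -0.44. For Ube2v1 the average took in a dim probe set (37 in Runx2-/- and 33 in wild type), while the brighter ones were at -0.44 and -0.47. No paired analysis was possible because each group has 1 array. Dim probe sets, such as that of Relb, limit what small differences can show.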

Other observations

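The genes of the alternative NF-kappaB branch, in which receptors of the TNF family free the kinase NIK and p100 is cut to p52, were gathered after their values had been seen, so their count supports nothing. Of 13 such genes 11 were measured (Chuk and Traf3 were not analysed here), 7 were above 0, and the median difference was 0.20. The receptors Cd27, Tnfrsf13c, Cd40 and Tnfrsf11a were at 1.67, 0.60, 0.49 and 0.20, while Ltbr was at -0.084. Inside the cell, Birc2, Nfkb2 and Birc3 were at 0.57, 0.31 and 0.18. The second Birc2 probe set was at 0.053. The list mixes genes that drive the branch with genes that restrain it, such as Birc2. Map3k14, which encodes NIK, Relb and Traf2 were at -0.14, -0.054 and -0.026.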
